A study of Mus musculus with 26 samples.

Results

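The meiotic prophase genes were chosen by symbol as 33 genes of synapsis, recombination and meiotic division. All 33 were found among the 23337 genes of the count tables (*Meiob* under its older symbol, 4930528F23Rik). They comprise 7 genes of the synaptonemal complex, 6 of the chromosome axis and cohesin and 3 of double-strand break formation. A further 8 are genes of strand exchange and break repair, 4 are of crossover formation and 5 are cell cycle, chaperone or regulatory genes. The rule used symbols and no measured values. RNA was sequenced from knock-in males (ArKI), whose allele replaces 2 SUMO acceptor lysines of 1 protein by arginines, and from WT littermates, all 3 months old and of a C57Bl/6N; 129 hybrid background. Each genotype had 5 samples of the initial segment (IS) of the epididymis, 5 of the caput and 3 of the testis. The knock-in is carried by the germline, so that every cell of an ArKI male holds the mutated allele, and no other allele or agent was given to either group. By the methods the mice numbered 5 per genotype for both segments together and 3 per genotype for the testis, so that IS and caput samples share mice. Which IS and caput samples came from the same mouse is not stated.

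In meiotic prophase, homologous chromosomes pair, are cut by the SPO11 enzyme, repair the breaks on the homologue and are held together by the synaptonemal complex until crossovers form. This takes place in spermatocytes, which lie in the seminiferous tubules of the testis and carry many transcripts that are scarce in other organs. The epididymis holds no spermatocytes, but its lumen holds sperm, and some genes of the group also serve somatic cells, such as *Cdk2* in the mitotic cycle and *Brca2* in general DNA repair.

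Total counts per sample were 14077013 to 21376604 in the testis, 5829074 to 9770625 in the IS and 4125768 to 11913469 in the caput, where ArKI replicate 2 was the shallowest. The testis was sequenced in another batch than the epididymis, so that tissue and batch cannot be told apart. Markers of the epididymal epithelium and of spermatids matched the tissue labels. The 10 listed genes of the epididymal epithelium summed to 65140 to 118200 CPM (counts scaled to the size of the library) in the epididymal samples and to 259.7 to 288.8 CPM in the testis. Of the 10 Sertoli genes 7, and of the 10 spermatogonial genes 4, had their highest mean in the testis. *Clu* of the Sertoli list had 25200 to 32190 CPM in the caput. The other 9 genes summed to 108.3 to 169.5 CPM in the caput, 411.3 to 765.1 CPM in the IS and 426.1 to 500.3 CPM in the testis. *Gfra1* and *Etv5* of the spermatogonial list together had 688.0 to 798.0 CPM in the IS and 18.28 to 21.53 CPM in the testis. The knock-in changes 2 codons, so gene counts do not check the genotype.

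The promoters of the group shared letters that the choice of members did not use. Promoter windows of 300 bases, from 250 before to 50 after a gene's start, were held by RefSeq (GRCm38.p6) for 28 of the 33 members. GCGGGAA, an E2F-like motif of 7 letters, was found on either strand in 13 of the 28 members (46.4%) and in 5.29% of 27025 genes. CACGTG, an E-box, was found in 6 members (21.4%) and in 8.09% of genes, and CAGTTG, the core bound by MYB proteins, in 3 members (10.7%) and in 15.4% of genes. *Mybl1* codes for a MYB protein of spermatocytes. *Hormad1*, *Stag3*, *Syce2*, *Sycp3* and *Tex12* held both the E2F-like motif and the E-box, as did 0.514% of genes. Matches of different motifs did not overlap in any member. As background, E2F-like and E-box motifs in promoters of germline genes are known as sites through which these genes are kept silent in somatic cells, and a match in a window does not show that a factor binds there. The windows of the neighbours *Rad51c* and *Tex14* overlap, and 1 E2F-like match was counted for both. Bases before the start are shown for 3 members with both motifs, which were at or near 0 in the epididymis, and for *Cdk2*, which had the E2F-like motif, was counted in every sample and rose in ArKI epididymis. They are on the strand of the gene with the motifs in capitals, and bases inside an exon of GENCODE M21 were left off. The stretches are those of *Sycp3* (chr10:88459337-88459568, + strand), *Hormad1* (chr3:95559427-95559676, + strand), *Tex12* (chr9:50561326-50561518, - strand) and *Cdk2* (chr10:128705052-128705179, - strand).
Sycp3: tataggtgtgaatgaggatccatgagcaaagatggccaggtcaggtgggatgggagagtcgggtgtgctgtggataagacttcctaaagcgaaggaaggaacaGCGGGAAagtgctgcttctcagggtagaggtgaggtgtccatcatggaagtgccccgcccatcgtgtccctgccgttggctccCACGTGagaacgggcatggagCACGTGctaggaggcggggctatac
Hormad1: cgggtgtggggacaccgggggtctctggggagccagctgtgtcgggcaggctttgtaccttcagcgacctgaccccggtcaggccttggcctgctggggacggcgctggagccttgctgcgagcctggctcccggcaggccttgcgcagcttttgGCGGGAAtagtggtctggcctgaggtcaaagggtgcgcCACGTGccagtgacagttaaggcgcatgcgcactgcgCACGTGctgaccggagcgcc
Tex12: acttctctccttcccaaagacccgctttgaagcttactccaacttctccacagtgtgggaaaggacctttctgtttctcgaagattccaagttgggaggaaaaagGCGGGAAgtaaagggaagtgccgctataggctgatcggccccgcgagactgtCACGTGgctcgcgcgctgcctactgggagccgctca
Cdk2: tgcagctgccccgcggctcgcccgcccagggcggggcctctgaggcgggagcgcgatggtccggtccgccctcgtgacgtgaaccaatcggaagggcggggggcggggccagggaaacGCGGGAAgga
Reading from the gene's start, the E-boxes of *Sycp3* began 64 and 43 bases before it and its E2F-like motif 147 bases before it. *Cdk2* had the E2F-like motif 10 and 140 bases before its start, the farther one outside the stretch shown. *Syce2*, with 1 E-box 88 bases and the E2F-like motif 34 bases before the start, also had counts in every epididymal sample. The same letters thus stood before the start of members at or near 0 in the epididymis and of members counted there.

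To see where the group is expressed, levels per length (RPKM, the CPM divided by the exon length in kilobases) were compared across the tissues of WT mice. All 33 members were counted in every WT testis library, and they spanned from 626 to 2.51 RPKM on average. *Hspa2*, a chaperone of spermatocytes, was the highest, with 601.9, 628.3 and 648.5 RPKM in the 3 WT testes. *Syce1*, a central element protein of the synaptonemal complex, had 283.8, 323.4 and 317.4 RPKM, and *Stag3*, a meiotic cohesin subunit, had 175.6, 168.3 and 181.9 RPKM. These 3 were separate from each other in every library. *Mei1*, needed for break formation, had 4.37, 3.87 and 4.41 RPKM, *Rad21l*, a meiotic kleisin of cohesin, had 2.47, 2.86 and 2.37 RPKM, and *Prdm9*, the methyltransferase that marks recombination hotspots, had 2.85, 2.31 and 2.39 RPKM. The ranges of *Rad21l* and *Prdm9* overlapped. Along the whole order, 12 of 32 neighbouring pairs had overlapping ranges.

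In the WT epididymis many members had few counts. In the IS 10 members, and in the caput 11, had at most 3 counts in every WT library. *Tex12*, a central element gene, had 0 counts in all 20 epididymal libraries. Against the WT IS, 31 of 33 members were higher in the WT testis (edgeR, adjusted p below 0.05 and fold above 2), where 38.5% of all 16402 genes tested were, and none was lower, where 31.2% of genes were. Against the WT caput, 30 members were higher in the testis, beside 38.1% of all genes, and none was lower, beside 31.5%. Members with few epididymal counts passed the filter on low counts through the testis, where they are high, so these tallies are a description. At least 10 counts in every WT sample were found for 11 members. The adjusted p and fold limits above called 9 of them against the IS and 8 against the caput, all with the testis above. Members outside these tallies can still differ by a smaller fold, and no share of all genes is given for this filter. Of the members with epididymal counts, several that code for structural proteins of meiotic chromosomes had the widest differences. *Sycp3*, of the lateral element, had 140.6 to 151.3 RPKM in the testis and 5 counts in all in the 5 WT IS libraries, a ratio of 1678 (95% exact interval 719 to 5169, counting error only). *Sycp1*, the transverse filament gene, had a testis to IS ratio of 3026 (1181 to 11110). *Hormad2*, *Rad21l*, *Mei1* and *Tex12* had no counts in the WT IS and were at least 45.9-, 12.7-, 59.6- and 43.3-fold higher in the testis, taking 3 counts per library as the floor. In the caput *Tex12* and *Spata22*, which acts with *Meiob*, had none, and were at least 46.0- and 67.0-fold higher in the testis. The floor was used only for members without counts, so these bounds cannot be ranked beside the ratios of the others. With the members without counts at their bound, the median log2 difference of the group was 5.52 from the IS, itself a bound, and 5.67 from the caput. The fitted medians were 6.85 and 5.82. For all genes tested the fitted medians were 0.19 and 0.16.

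**Figure D1:**
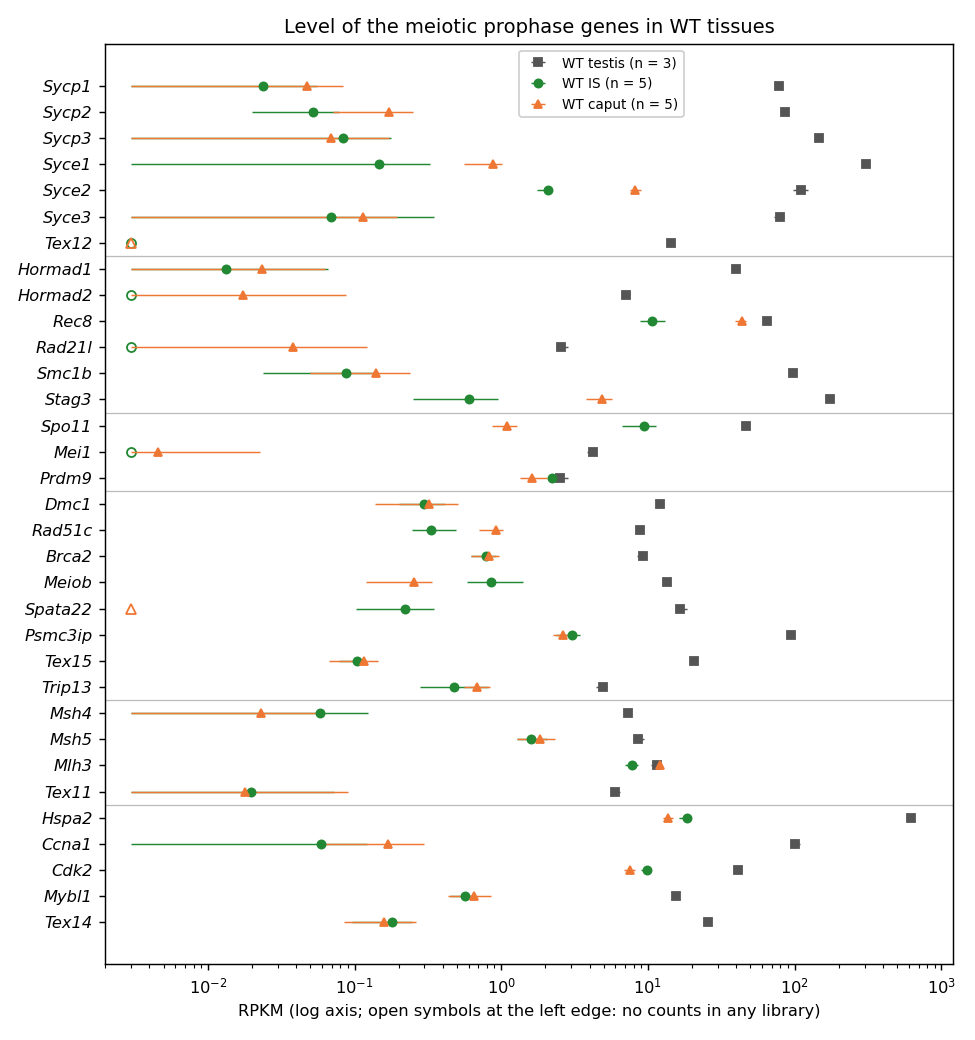
Mean RPKM (log axis) of the 33 members in the WT testis (3 libraries), IS and caput (5 libraries each), grouped by role between the grey lines; bars span the lowest to the highest library, and reach the left edge where a library had no counts. Most members lie far to the right in the testis, whereas *Mlh3* and *Prdm9* differ less across tissues, and *Rec8* lies close to its testis level in the caput.

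A few members were well expressed in the epididymis. *Hspa2* was the highest in the WT IS, with 18.68, 19.80, 18.22, 16.34 and 19.31 RPKM (18.5 ± 1.34, SD, n = 5). *Rec8* had 13, 8.87, 10, 9.77 and 11.85 RPKM (10.7 ± 1.68) and *Cdk2* had 10.52, 9.87, 10.01, 9.72 and 8.98 RPKM (9.82 ± 0.558). *Spo11* followed with 9.41 ± 1.83, and the ranges of these last 3 overlapped. In the WT caput *Rec8*, the meiotic kleisin, was the highest with 39.46, 45.48, 39.88, 46.76 and 46.41 RPKM. Next came *Hspa2* with 14.07, 14.74, 13.58, 12.72 and 13.87 RPKM and *Mlh3*, a mismatch repair gene needed for crossovers, with 12.45, 12.44, 12.22, 11.10 and 12.36 RPKM. In the testis *Mlh3* had 11.84, 10.57 and 12.13 RPKM, of which the lowest lay below every caput sample (log2 difference, testis minus caput, -0.07, SE 0.07, edgeR adjusted p = 0.31). *Prdm9* had 2.10 to 2.32 RPKM in the WT IS, within 0.19 (SE 0.14) of its testis level on the log2 scale (adjusted p = 0.20). Against the other segment both were higher in the testis. *Mlh3* was 0.57 (SE 0.07, edgeR adjusted p = 5.8e-08) above the IS and *Prdm9* 0.64 (SE 0.14, adjusted p = 0.00021) above the caput. *Rec8* in the caput was 0.57 (SE 0.08) below its testis level on this scale, and 6.06 times lower in the IS than in the testis. *Ipo4* ends 5 bases beyond the end of *Rec8* (mm10, GENCODE M21), and whether reads of the neighbour reach *Rec8* was not tested.

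The testis comparison asked whether the knock-in goes with another level of meiotic transcripts. All 33 members passed the filter on low counts, and none was called at the thresholds of the study (false discovery rate below 0.2 and fold above 2), where 0.833% of 15838 genes were. None had an adjusted p below 0.05 in edgeR, DESeq2 or limma-voom, beside 1.64% of genes higher and 0.328% lower in ArKI. An unadjusted p below 0.05 was found for 4 members, all lower in ArKI, in edgeR, and for 4 each in DESeq2 and limma-voom and 2 with a correction for gene length, and 13.1% of all genes had one in edgeR, with 5.94% of genes lower. Log2 fold changes, ArKI over WT throughout, lay between -0.31 and 0.13, with SEs of 0.059 to 0.18. The intervals of 2 SE stayed between -0.51 and 0.33, and 32 of 33 lay within 0.5 of 0. The log2 fold change was below 0 for 26 members and above 0 for 7, with a median of -0.057 (31 below 0 with the length correction, and a median of -0.10 without WT testis replicate 2), and 50.7% of all genes tested were below 0 with a median of -0.0023. Quartiles of all genes were -0.094 and 0.10, and in bulk tissue fewer cells of a type and less RNA per cell cannot be told apart.

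Among the synaptonemal complex genes the median was 0.00012, from -0.12 for *Sycp1* to 0.071 for *Sycp3*. *Sycp3* shares exon bases with *Chpt1* on the opposite strand, and since the use of strand in the counting is not stated, reads of the pair cannot be told apart. The axis and cohesin genes lay between -0.14 (*Hormad2*) and -0.00086 (*Hormad1*). *Mei1* had the lowest log2 fold change of the group, at -0.31 (SE 0.10, edgeR adjusted p = 0.16). It had 17.0, 14.7 and 17.0 CPM in the WT testes and 12.02, 13.86 and 13.45 CPM in the ArKI testes. All ArKI samples were below all WT samples, which was so for 1 of 33 members and for 8.49% of all genes. *Psmc3ip*, which helps DMC1 in strand invasion, was the only member with all ArKI above all WT samples, as were 9.36% of genes, with 97.4, 101 and 97.1 CPM in WT and 113, 104 and 106 CPM in ArKI (log2 fold change 0.13, SE 0.064, adjusted p = 0.40). It shares exon bases with *Mlx* on the opposite strand. *Mybl1*, a regulator of pachytene transcription, had 62.0, 62.1 and 65.2 CPM in WT and 44.6, 54.3 and 63.0 CPM in ArKI, with overlapping groups (-0.22, SE 0.095, adjusted p = 0.31). Without ArKI testis replicate 3 *Mybl1* passed an adjusted p of 0.05 with a log2 fold change of -0.35. *Brca2* (-0.17) and *Tex15* (-0.17) completed the members with an unadjusted p below 0.05.

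Beside this, markers of other testis cells were measured. The 10 spermatogonial genes summed to 144.8 to 157.9 CPM in WT and 143.0 to 155.9 CPM in ArKI, with *Zbtb16* higher and *Kit* lower at an adjusted p below 0.05. The round spermatid genes summed to 1948 to 2305 and 2155 to 2267 CPM, and those of elongating spermatids and sperm to 23380 to 27750 and 25170 to 28210 CPM, with none of the 10 genes of either list at an adjusted p below 0.05. Of the 8 Leydig cell genes 3 were higher in ArKI at an adjusted p below 0.05, and the list median was 0.21. The largest rise was that of *Cyp11a1*, the enzyme that starts steroid synthesis, by 0.92 (SE 0.083, edgeR adjusted p = 1.0e-06) on the log2 scale. *Lhcgr* (-0.29, SE 0.29) and *Hsd3b6* (-0.28, SE 0.22) went the other way, without an adjusted p below 0.05. Summed Leydig levels did not overlap, with 601.6 to 823.4 CPM in WT and 973.6 to 1054 CPM in ArKI. Summed macrophage and T cell genes did not overlap either, with 73.73 to 75.8 CPM in WT and 77.86 to 80.98 CPM in ArKI, and none of the 7 tested had an adjusted p below 0.05 in edgeR (3 had an unadjusted one). Of the 5 peritubular genes only *Acta2* had an adjusted p below 0.05 in edgeR, higher in ArKI by 0.35 (SE 0.083, adjusted p = 0.023). *Cnn1* was at 0.31 and *Des* at 0.0067, whereas *Myh11* (-0.22) and *Tagln* (-0.13) were lower, and the list median was 0.0067. The part of these lists in the members' values was not tested.

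**Figure D2:**
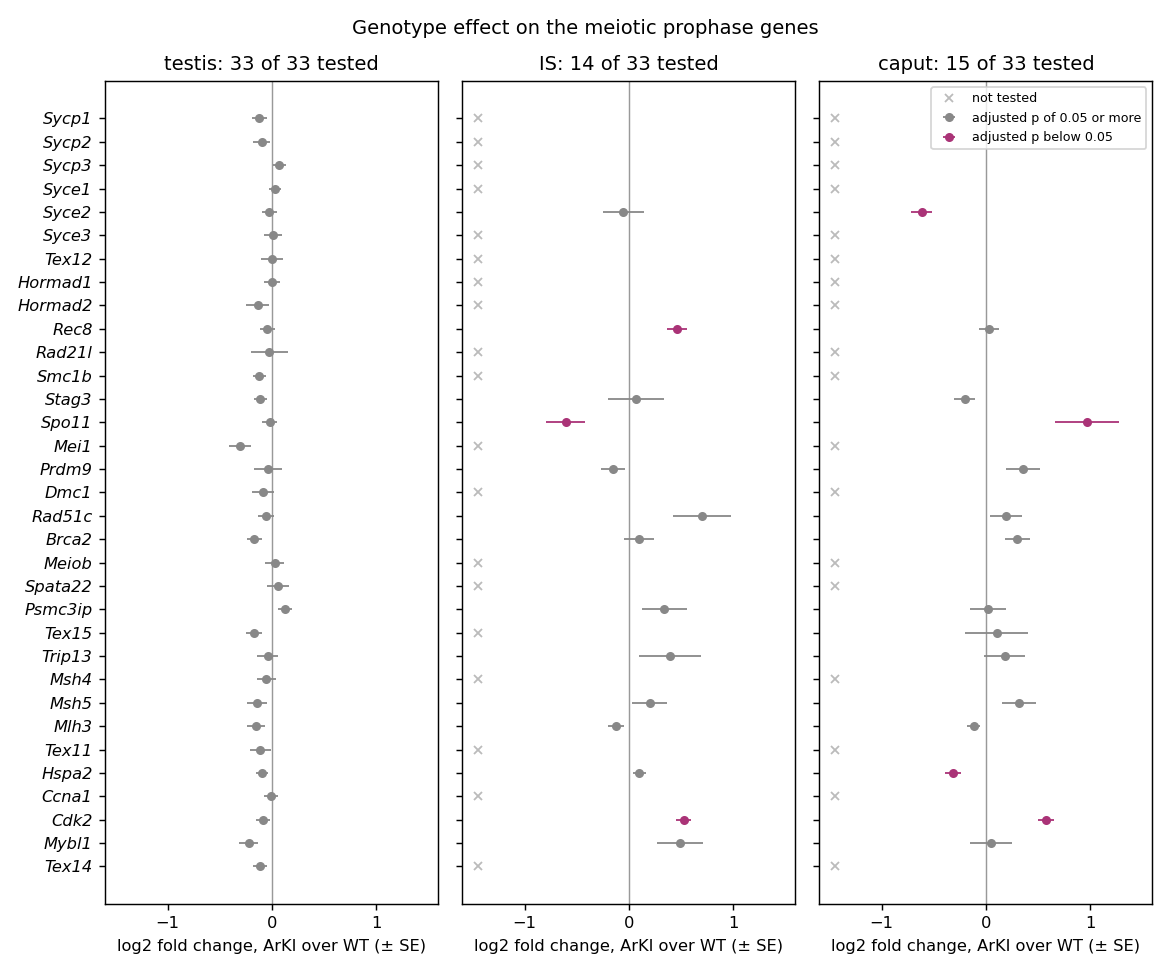
Log2 fold change of each member, ArKI over WT, with its SE (bars) from edgeR in the testis (3 + 3 samples), IS and caput (5 + 5 samples each); crosses mark members left out by the filter on low counts. The testis values stay between -0.31 and 0.13, and the members with an adjusted p below 0.05 are *Rec8*, *Spo11* and *Cdk2* in the IS and *Syce2*, *Spo11*, *Hspa2* and *Cdk2* in the caput.

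In the IS, 14 of the 33 members passed the filter on low counts, and among the other 19 the highest count in any library was 24. None was called at a false discovery rate below 0.01 and a fold above 2 in edgeR, DESeq2 or limma-voom, where 4.04% of 13434 genes were in edgeR, and 5 had an unadjusted p below 0.05, as had 39.7% of all genes. *Cdk2* and *Rec8* were higher in ArKI at an adjusted p below 0.05, as were 15% of all genes, and *Spo11* was lower, as were 14.6%. The median log2 fold change of the 14 was 0.15 (0.26 without WT replicate 1, and 0.042 over every member with a count), and that of all genes -0.00011. In none of the 14 were all ArKI samples below all WT samples, which was so for 10.5% of genes, and in 1, *Cdk2*, all were above, as in 9.52% of genes.

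*Cdk2* codes for a cyclin-dependent kinase of the mitotic cycle that also sits on telomeres and crossovers in spermatocytes. It had 27.5, 25.8, 26.2, 25.4 and 23.5 CPM in the WT IS and 38.1, 36.9, 33.2, 39.4 and 37.1 CPM in the ArKI IS. Its log2 fold change was 0.52 (SE 0.069, edgeR adjusted p = 1.0e-05). *Rec8* had 30.8, 21.0, 23.7, 23.1 and 28.1 CPM in WT and 30.2, 34.6, 37.6, 33.9 and 38.6 CPM in ArKI, a rise of 0.47 (SE 0.098, adjusted p = 0.0014) on the log2 scale. The groups of *Rec8* overlapped by 1 library, since WT replicate 1 was above ArKI replicate 1. *Spo11*, the enzyme that cuts DNA to start recombination, had 21.7, 18.9, 19.7, 12.6 and 16.6 CPM in WT and 10.99, 10.71, 9.95, 18.6 and 9.52 CPM in ArKI. It fell by 0.61 (SE 0.18, adjusted p = 0.024) on the log2 scale. ArKI replicate 4 lay among the WT samples and the other 4 ArKI samples below all of them. The fall of *Spo11* had an adjusted p above 0.05 without any 1 of ArKI replicates 1, 2, 3 and 5 or WT replicates 1 to 3, with log2 fold changes of -0.58, -0.58, -0.56, -0.53, -0.53, -0.59 and -0.57. Without ArKI replicate 4 it was -0.80 (adjusted p = 0.00030). With the replicate number as a block in edgeR the fall had an adjusted p of 0.085.

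Of the other members in the IS, *Rad51c*, which acts in repair by strand exchange, had the highest log2 fold change at 0.70 (SE 0.28, adjusted p = 0.068), and *Mybl1* had 0.49 (SE 0.22, adjusted p = 0.099). *Meiob*, which binds single-stranded DNA during strand exchange, had too few counts for the filter: 15, 24, 11, 8 and 12 in WT and 4, 6, 4, 5 and 9 in ArKI. Its summed counts gave a WT to ArKI ratio of 2.16 (95% exact interval 1.37 to 3.47, counting error only), and a fit without the filter gave a log2 fold change of -1.10 (adjusted p = 0.024). Of the structural genes besides *Rec8*, *Stag3* (0.072, SE 0.27, adjusted p = 0.88) and *Syce2* (-0.054, SE 0.20, adjusted p = 0.87) were tested in the IS. The others were among the 19 members left out, of which 9 had at most 3 counts in every library. Marker lists moved in the IS as well. All 5 smooth muscle genes were lower in ArKI (summed level 544.6 to 631.7 CPM in WT and 238.9 to 422.5 CPM in ArKI), as were *Prm2* and *Odf1* of the 3 tested sperm genes. Of the macrophage and T cell genes 3 of 7 tested were lower, of those of the epididymal epithelium 5 of 10 were lower and 2 higher, and of those of Sertoli cells 3 of 5 tested were higher and 1 lower. Their part in the members' values was not tested.

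**Figure D3:**
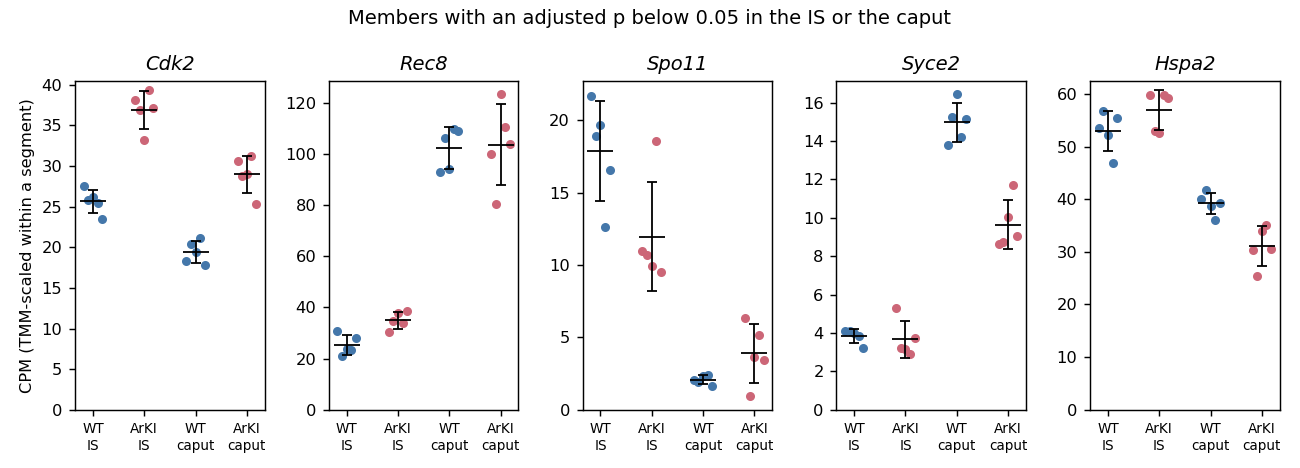
CPM of the 5 members with an adjusted p below 0.05 in the IS or the caput, 1 point per library, with the mean and SD (black) of 5 libraries; axes start at 0. *Cdk2* is higher in ArKI in both segments without overlap, *Syce2* and *Hspa2* are lower in the ArKI caput without overlap, and *Spo11* is lower in the ArKI IS and higher in the ArKI caput, with 1 ArKI library apart in each.

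In the caput, 15 of the 33 members passed the filter. None was called at the study's thresholds in edgeR, DESeq2 or limma-voom, beside 4.98% of 13726 genes in edgeR, and 6 had an unadjusted p below 0.05, as had 37.7% of all genes. Without any 1 of the 5 ArKI libraries, or without WT replicate 2, *Syce1* passed the filter and was called as lower in ArKI. The filter kept it through the WT group, where it is high, so these calls are a description. The log2 fold changes were -4.33 to -3.85, leaving aside the fit without ArKI replicate 5, where every ArKI count was 0 and no fold can be estimated. At an adjusted p below 0.05, *Cdk2* and *Spo11* were higher in ArKI, as were 13.7% of genes, and *Syce2* and *Hspa2* were lower, as were 14%. The median of the 15 was 0.10 and that of all genes 0.0017. The median of the 15 was 0.032, 0.042 and 0.055 without ArKI replicates 3, 4 and 1, and 0.054, 0.16 and 0.16 without WT replicates 4, 3 and 5. All ArKI samples were below all WT samples in 2 of the 15, where 10.4% of genes were so, and above them in 1, where 9.94% were.

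*Cdk2* rose in the caput as well, from 18.3, 20.4, 19.5, 21.1 and 17.8 CPM in WT to 30.6, 28.8, 29.0, 31.2 and 25.4 CPM in ArKI. The log2 fold change was 0.58 (SE 0.077, edgeR adjusted p = 2.4e-05), and it differed from that of the IS by 0.050 (SE 0.10, adjusted p = 0.80). *Syce2*, a central element gene of the synaptonemal complex, had 13.8, 15.3, 16.4, 14.2 and 15.1 CPM in WT and 8.65, 8.75, 10.05, 11.7 and 9.03 CPM in ArKI. It fell by 0.62 (SE 0.10, adjusted p = 0.00024) on the log2 scale, with no overlap. *Hspa2* had 40.1, 41.7, 38.7, 36.1 and 39.4 CPM in WT and 30.4, 25.3, 33.9, 35.2 and 30.5 CPM in ArKI, all below the lowest WT sample, and fell by 0.32 (SE 0.076, adjusted p = 0.0043).

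*Spo11* had 2.04, 1.95, 2.33, 2.43 and 1.63 CPM in the WT caput and 6.37, 0.921, 3.61, 5.13 and 3.45 CPM in the ArKI caput, a rise of 0.97 (SE 0.31, adjusted p = 0.027) on the log2 scale. Of the ArKI samples 4 were above all WT samples, and the shallowest, replicate 2, with 4 counts, was below all of them. The rise had an adjusted p above 0.05 without any 1 of WT replicates 1, 2 and 5 or ArKI replicates 1 and 4, with log2 fold changes of 0.97, 0.95, 0.90, 0.77 and 0.86, and by limma-voom, with 0.85. WT levels of *Spo11* were higher in the IS than in the caput, and the level of an IS gene is therefore given beside it. *Lcn8*, with 13080 to 14310 CPM in the WT IS, had 42.6 to 1145 CPM in the WT caput and 28.2 to 374 CPM in the ArKI caput. The ArKI library with the most *Spo11*, replicate 1, had the least *Lcn8* of the 10, whereas WT replicates 3 and 4 had the most *Lcn8* and the most *Spo11* of the WT libraries. The part of IS tissue in the caput values of *Spo11* was not tested.

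The other members tested in the caput had adjusted p-values of 0.076 or more. *Brca2* (log2 fold change 0.30, SE 0.12, adjusted p = 0.076), *Prdm9* (0.36, SE 0.17, adjusted p = 0.12) and *Msh5* (0.32, SE 0.16, adjusted p = 0.16) were the next by p. *Rec8*, with a rise in the IS, had 92.8 to 109.6 CPM in the WT caput and 80.4 to 123.3 CPM in the ArKI caput (0.028, SE 0.095, adjusted p = 0.87). *Stag3* had a log2 fold change of -0.20 (SE 0.10, adjusted p = 0.16).

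Some of the 18 members left out of the caput test had counts in WT samples and almost none in ArKI samples. *Syce1* had 15, 8, 12, 13 and 13 counts in WT and 0, 0, 0, 0 and 3 in ArKI, so the summed counts, 61 and 3, gave a WT to ArKI ratio of 21.9 (95% exact interval 7.16 to 109). *Sycp2*, of the lateral element, had 15, 4, 10, 7 and 11 counts in WT and 0, 0, 2, 3 and 1 in ArKI, a ratio of 8.45 (3.604 to 24.2). *Ccna1*, the A-type cyclin of spermatocytes, had 1 to 5 counts in WT and 0 or 1 in ArKI, with a ratio of 8.09 (1.88 to 72.9), and *Sycp1* had 0 to 3 in WT and 0 in every ArKI library. *Ccna1* shares exon bases with 4931419H13Rik on the opposite strand. The intervals cover counting error only. In a fit of every gene with at least 1 count these 4 had adjusted p-values of 7.4e-06, 0.00025, 0.015 and 0.024, and *Syce1* and *Sycp2* were past the study's thresholds, so that 2 members were called there in place of 0. These 4 were singled out after their values were seen.

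**Figure D4:**
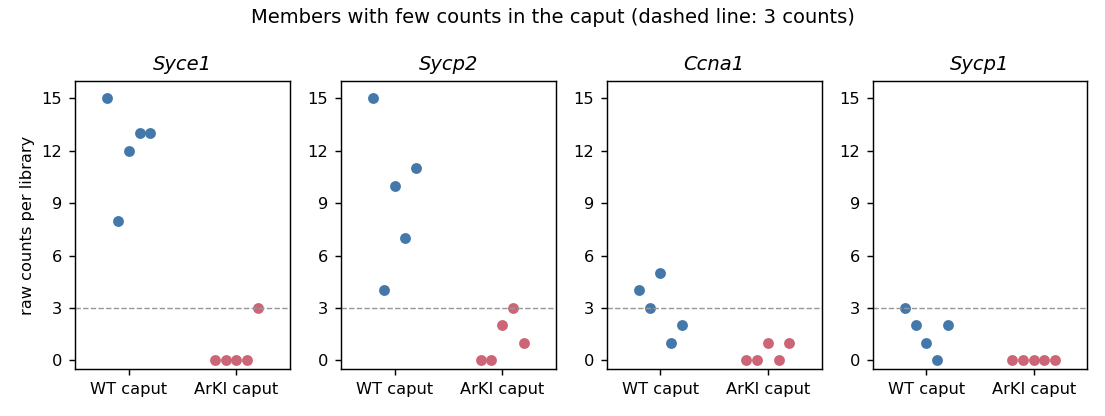
Raw counts of *Syce1*, *Sycp2*, *Ccna1* and *Sycp1* in the 5 WT and 5 ArKI caput libraries, 1 point per library; the dashed line marks 3 counts. *Syce1* lies between 8 and 15 counts in WT and is 0 in 4 of 5 ArKI libraries.

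Transcripts of haploid germ cells moved with these members in the caput. All 10 genes of elongating spermatids and sperm were lower in ArKI at an adjusted p below 0.05, with a median log2 fold change of -3.07 and a summed level of 333.8 to 504.8 CPM in WT and 102.3 to 171.6 CPM in ArKI. Of the 10 round spermatid genes 4 were tested and 2 were lower, with a summed level of 19.45 to 25.03 CPM in WT and 14.98 to 18.66 CPM in ArKI. The part of these transcripts in the values of *Syce1*, *Sycp2*, *Syce2* and *Hspa2* was not tested. *Smc1b*, a meiotic cohesin gene, had 2 to 9 counts in WT and 4 to 11 in ArKI, and *Dmc1*, the meiotic recombinase, had 3 to 10 and 3 to 9.

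Whether an effect differed between the segments was tested for 15 members as the interaction of segment and genotype. *Spo11* (1.59, SE 0.38, edgeR adjusted p = 0.0054) and *Hspa2* (-0.42, SE 0.10, adjusted p = 0.0049) had an adjusted p below 0.05, beside 15.1% of 14329 genes, where values are the log2 fold change in the caput minus that in the IS. *Spo11* thus fell in the IS and rose in the caput, and *Hspa2* fell in the caput with a value of 0.10 (SE 0.062, adjusted p = 0.25) in the IS. *Syce2* (-0.57, SE 0.20, adjusted p = 0.056) and *Rec8* (-0.43, SE 0.15, adjusted p = 0.056) missed the threshold. This fit took the samples of both segments as independent although they share mice. With the replicate number as a block *Rec8* passed as well (-0.45, SE 0.14, adjusted p = 0.042), and *Syce2* did not (adjusted p = 0.091).

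Further genes of meiosis, 45 of a list of 50 by symbol, were measured for comparison. In the testis 44 were tested and none had an adjusted p below 0.05 in edgeR (4 had an unadjusted one), with log2 fold changes of -0.22 to 0.24 and a median of -0.064. In the IS 11 of 25 tested genes were higher in ArKI at an adjusted p below 0.05 (15% of all genes) and 1 was lower (14.6% of all genes), and the median was 0.37. The 5 highest rises were those of *Exo1*, an exonuclease that acts on breaks (1.24, SE 0.29, edgeR adjusted p = 0.0028), the cyclins *Ccnb1* (1.01) and *Ccnb2* (0.92), the phosphatase gene *Cdc25c* (0.91) and the polo-like kinase gene *Plk1* (0.80). In the caput 9 of 27 were higher (13.7% of all genes) and 2 were lower (14% of all genes), with a median of 0.39. *Cdk1*, the partner of B-type cyclins, had the highest log2 fold change (1.51, SE 0.33, adjusted p = 0.0041), followed by *Exo1* (1.501), *Ccnb2* (1.32), the spindle checkpoint gene *Bub1b* (0.98) and *Kash5*, which ties meiotic telomeres to dynein (0.94). *Mcmdc2*, needed for recombination, fell by 0.87 and the nuclease gene *Mus81* by 0.24. *Mus81* fell by 0.23 in the IS as well, and 6 genes rose in both segments, out of 11 in the IS and 9 in the caput. Of the 23 genes of this list tested in both segments these were 26.1%, and 5.8% of all 12969 genes tested in both rose in both.

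By role, the genes of meiotic entry and division include many that serve mitosis too. Of these, 7 of 10 tested in the IS and 4 of 8 in the caput were higher in ArKI at an adjusted p below 0.05, beside the 15% and 13.7% of all genes, with medians of 0.72 and 0.71. Of the recombination and crossover genes of this list, 3 of 12 were higher in the IS and 3 of 14 in the caput, and the medians were 0.093 and 0.15. Levels of *Cdk1* were 8.22 to 12.6 CPM in the WT IS and 9.72 to 20.3 CPM in the ArKI IS, and 0.867 to 4.54 and 5.20 to 11.8 CPM in the WT and ArKI caput, where the groups did not overlap. In the testis *Cdk1* had 40.6 to 44.9 CPM in WT and 39.0 to 41.0 CPM in ArKI.

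**Figure D5:**
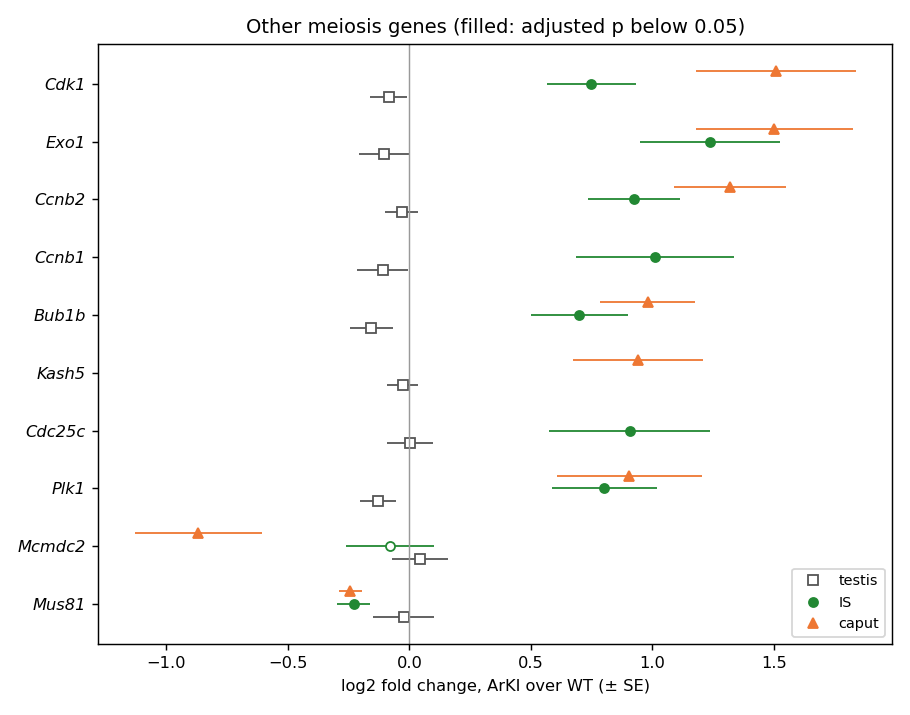
Log2 fold change, ArKI over WT, with SE (bars) of other meiosis genes named by size in the IS or caput; filled symbols have an adjusted p below 0.05. In the testis (open squares) none of them passes, while *Exo1*, *Ccnb2*, *Cdk1*, *Bub1b* and *Plk1* are higher in ArKI in both segments.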

How the data were processed

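Per genotype, 5 IS, 5 caput and 3 testis samples were analysed. Per the methods, reads of 50 bases were aligned to mm10 with STAR and uniquely mapped reads were counted on RefSeq genes. The authors deposited raw counts per gene, without normalization (Subread 1.5.1 and bcl2fastq 1.8.4 in the submitters' notes). The kit is given both as stranded and as unstranded, and the strand setting of the counting is not given in the sources used here. Reads of 1 strand therefore cannot be assumed.

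Counts were tested per tissue with the quasi-likelihood test of edgeR 4.0.16 in R 4.3.3 (TMM, filterByExpr with minimum count 10 and minimum total 15, Benjamini-Hochberg over all genes tested). Thresholds follow the study, which used ROTS on voom values. ROTS was not run, and limma-voom (limma 3.58.1) and DESeq2 1.42.0 were alternatives. CPM were TMM-scaled within a tissue, and RPKM over the 13 WT samples with union exon lengths of GENCODE M21. The scripts were tested on simulated data. The members, gene lists and tests were chosen with earlier results of these data known. All 33 members are named; values per sample are given for those with an adjusted p below 0.05, for the 3 highest and 3 lowest by RPKM in the WT testis and for the 3 highest in each WT segment, with a few others chosen after their values were seen. Of other meiosis genes at most 5 in each direction are named. Columns of samples outside the series were 0. Whether equal replicate numbers mark the same mouse is not stated. Deviations of samples with the same number had correlations from -0.19 to 0.20 between WT and ArKI and from -0.15 to 0.21 between IS and caput. The numbers were not used as pairs in the main fits, only as a block in alternative fits. Values of the knocked-in gene are not reported here.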

Additional observations from a re-analysis of the deposited data

Results flagged for a closer look

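Among 58 groups of 5 epididymal libraries (the tested members in WT or ArKI, IS or caput), 4 held 1 library far from the rest by Dixon's test on log2 CPM, and chance gives about 2.9. *Spo11* had 18.6 CPM in ArKI IS replicate 4, where the other ArKI IS libraries had 9.52 to 10.99. *Mlh3* had 66.2 CPM in WT caput replicate 4, the lowest of its group. *Rad51c* had 3.25 CPM in WT caput replicate 2 and 4.11 CPM in ArKI caput replicate 4, each the lowest of its group. Effects of genotype differed between segments, by the interaction test in edgeR, for *Spo11* (caput minus IS, 1.59 on the log2 scale) and for *Hspa2* (-0.418).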

How the results depend on the processing

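The alternatives were RLE or library size scaling, 2 other filters, DESeq2, limma-voom, a length correction, the replicate block, 1 fit of all epididymal groups, other thresholds and leaving out each sample. At the fold limit of the study no member was called in the testis or the IS under any alternative. In the caput none was called except with every gene of at least 1 count (2) or without 1 sample (0 to 2). In the fits without 1 sample, smaller groups let *Syce1* pass the filter through the WT group, where it is high. *Spo11* passed a fold of 2 as well without ArKI replicate 2. Dropping the fold limit and taking an adjusted p below 0.05 gave 3 members in the IS and 4 in the caput. With every gene of at least 1 count, 8 members in the caput had an adjusted p below 0.05, and the medians were 0.042 in the IS and 0.030 in the caput. With at least 10 counts in every sample the caput median was 0.042. Under this filter 9 members were called in the testis against the IS and 8 against the caput (adjusted p below 0.05, fold above 2). Leaving out 1 sample gave medians of -0.10 to -0.051 in the testis, 0.12 to 0.26 in the IS and 0.032 to 0.16 in the caput, 0 to 1 testis members with an adjusted p below 0.05 (*Mybl1*, without ArKI testis replicate 3) and 2 to 4 members with an interaction (4 without ArKI caput replicate 3, adding *Prdm9* and *Rec8*). With the replicate block no call of a member was added in the testis, IS or caput (0 in each), *Spo11* in the IS had an adjusted p of 0.085, and 3 members had an interaction, *Rec8* being added. Of 5 numbers, 3 in WT and 2 in ArKI correlated best with their own number between IS and caput. *Cdk2*, *Rec8*, *Syce2* and *Hspa2* kept direction and an adjusted p below 0.05 in the segments named above under every alternative. *Spo11* kept its direction, with an adjusted p of 0.05 or more under 9 of 20 alternatives in the IS and 6 of 19 in the caput, the cause of which was not tested. Depth limits the epididymis most, where 3 counts are 0.252 to 0.727 CPM in the caput.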
